A study of Rattus norvegicus with 8 samples.

Results

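The genes described here are those of the blood and lymphatic vessels of the heart: the ligands and receptors of the vascular endothelial growth factor (VEGF) and angiopoietin systems, genes shared by most endothelial cells, lymphatic markers, adhesion molecules and genes of coagulation. They are a list of 46 gene symbols, matched to the array by name. The list was drawn up with earlier results of these data known. Of the 46 genes, 43 were measured, by 67 of the 31042 probe sets of the array, and no probe set annotated to the other 3 (Cdh5, Robo4 and Efnb2) was used in the counts. A probe set is a group of short oligonucleotides that together read a single transcript. Where a gene had several, the brightest on average stood for it in the counts, as for all 14217 genes of the array.

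The study compared left atrial appendage with left ventricular free wall of 13 normal male Sprague-Dawley rats of 225 to 275 g, with the side given by the methods of the study. No animal was treated. Each tissue gave 4 independent pools, and the RNA of a pool was hybridized to an array of its own. A replicate is therefore a pool and not a single animal. The values are log2 signal intensities, on which a difference of 1 is a doubling, and differences are atrium minus ventricle. Means below 4 are close to the floor of this scale, and the size of a difference there is not set.

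Endothelial cells line every vessel. VEGF-A, made largely by the tissue around the vessel, acts on endothelial receptors to make capillaries sprout and survive, with neuropilins as co-receptors. VEGF-C acts mainly through Flt4 on lymphatic endothelium. Angiopoietin 1, from mural and other cells around the vessel, activates the endothelial receptor Tek and steadies the vessel wall, and angiopoietin 2 can oppose it. Working ventricular muscle is supplied by a dense capillary bed, whereas the thin atrial appendage has much surface for its mass, with endocardium inside and mesothelium outside.

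The labels were checked against cardiomyocyte genes. All 5 atrial markers measured were higher in the atria and all 6 ventricular markers were lower, at an adjusted p under 0.05 from limma, the threshold for every call given here. Ventricular markers were not equally low in the atrial pools: their summed linear intensity was 3094, 812.6, 868.8 and 4682 in atrial replicates 1 to 4, against 23580 to 25000 in the ventricles. The overall count of members is therefore also given without atrial replicates 1 and 4.

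Most of the vascular genes had lower signals in the atria, and a smaller set had higher signals there. Of the 43 measured members, 28 were lower in the atria (65.1%), 9 were higher (20.9%) and 6 did not pass the test. Over all 14217 genes, 22.5% were lower and 22.5% were higher by the same rule. The median difference of the members was -0.61, against -0.04 over all genes. Without atrial replicates 1 and 4 the counts were 29 lower and 8 higher. In bulk tissue, fewer cells of a type and less RNA per cell cannot be told apart, and this holds for every difference below.

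**Figure D1:**
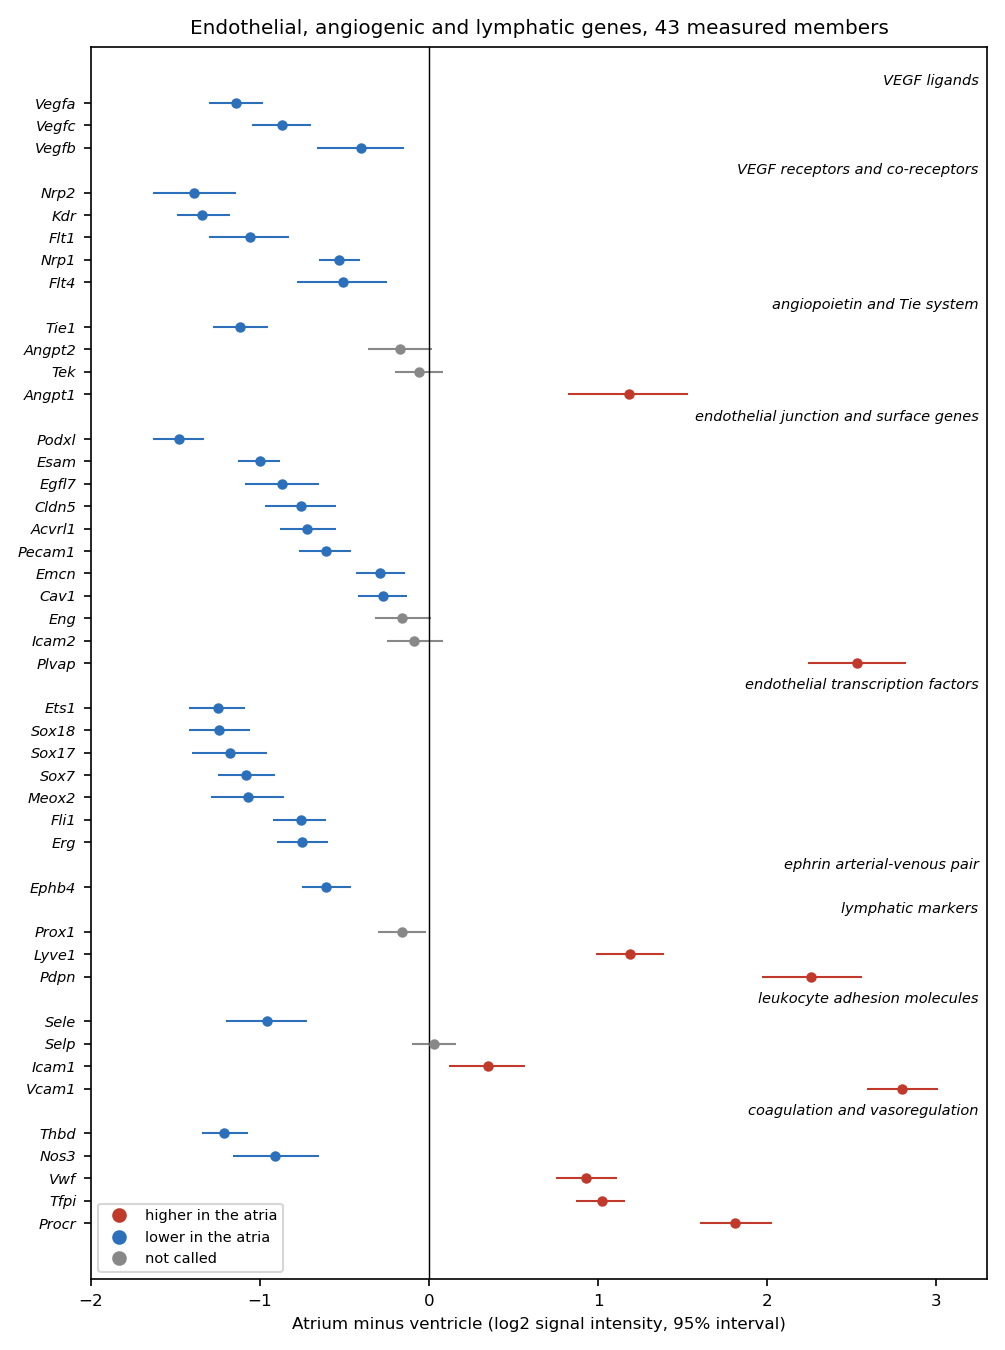
Atrium minus ventricle in log2 signal intensity (horizontal axis) for the 43 measured members, grouped by role down the page. Points are estimates from limma and bars their 95% intervals, not adjusted for the number of genes; the 28 blue members were lower in the atria, the 9 red ones higher and the 6 grey ones not called.

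The tissues separated on most members without a model. In 28 members every atrial array lay below every ventricular array, against 21.9% of all genes, and in 9 every atrial array lay above, against 22.2% of all genes. Called members and separated members were not quite the same: Flt4 was called with overlapping arrays, and Prox1 separated without being called. At the thresholds in the methods of the study, applied to the limma fit (an adjusted p under 0.0001 and a fold of at least 1.8), 16 members were lower and 7 higher, against 2.53% and 3.37% of all genes. The median SD between pools was 0.107 for the members and 0.111 for all genes.

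**Figure D2:**
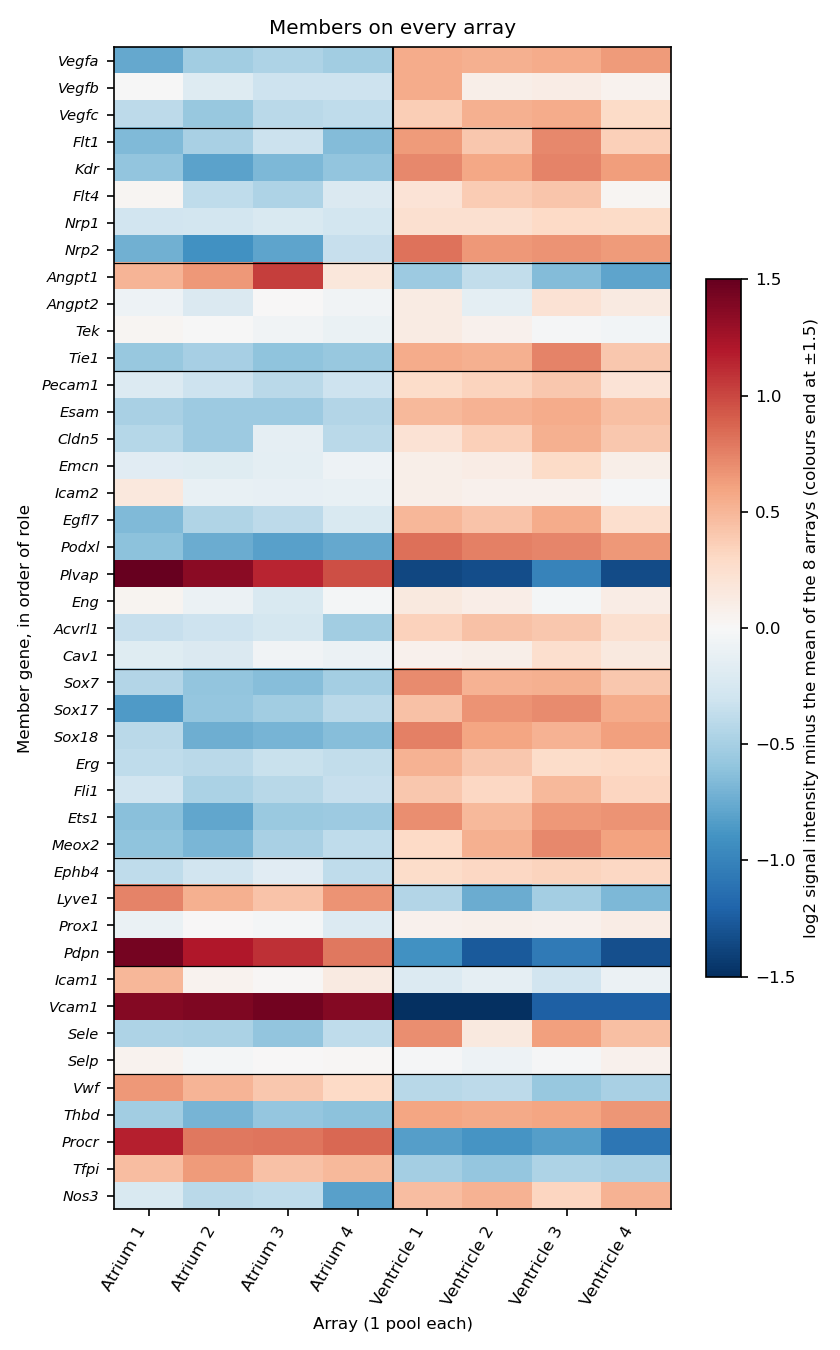
Each row is a member, each column an array with the 4 atrial pools left of the 4 ventricular pools, and the colour is the log2 signal intensity minus the mean of that gene over the 8 arrays. The 28 members lower in the atria show blue at left and red at right, and Plvap, Pdpn, Vcam1 and Procr are the strongest rows of the opposite pattern.

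All 3 VEGF ligands among the members were lower in the atria. Of the other ligands of the family, Vegfd (-0.37, adjusted p = 0.076) and Pgf (-0.15, 0.27) did not pass. Vegfa, the main growth factor of blood vessels, read 8.97, 9.21, 9.27 and 9.22 in the atrial pools, against 10.29, 10.27, 10.29 and 10.37 in the ventricular pools. Its difference of -1.14 (standard error 0.07, adjusted p = 9.2e-07) left a wide gap between the tissues, and a dimmer Vegfa probe set differed by -0.88. Vegfc, the growth factor of lymphatic vessels, read 6.13, 5.95, 6.11 and 6.14 in the atria, against 6.89, 7.05, 7.07 and 6.81 in the ventricles (difference -0.87). Vegfb, a ligand of Flt1 linked to fatty acid handling in muscle, differed least of the 3 members, by -0.40 (adjusted p = 0.017). Its atrial mean was 9.09 ± 0.14 and its ventricular mean 9.49 ± 0.23 (SD, n = 4 each). Its call was lost without atrial replicate 3 (adjusted p = 0.051). The difference of Vegfa minus that of Vegfb was -0.74.

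All 5 VEGF receptors and co-receptors were lower too. Kdr, the main signaling receptor for VEGF-A on endothelium, read 8.44, 8.24, 8.36 and 8.44 in the atria, against 9.76, 9.62, 9.78 and 9.66 in the ventricles, which is 2.53 fold lower (difference -1.34, adjusted p = 2.1e-07). Flt1, a VEGF-A receptor that also acts as a decoy, read 5.78, 5.96, 6.12 and 5.80 in the atria, against 7.09, 6.85, 7.17 and 6.80 in the ventricles (difference -1.06). Its other probe sets gave -1.10 and -0.81, so all 3 placed it lower in the atria. The difference of Kdr minus that of Flt1 was -0.27 by the brightest probe sets. The dimmer probe set of Kdr, with both means below 4, gave a difference of -0.28.

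Nrp2, a co-receptor for VEGF-C that also binds semaphorins, had the largest difference of the receptors, with 5.98, 5.79, 5.91 and 6.35 in the atria, against 7.52, 7.35, 7.37 and 7.34 in the ventricles (difference -1.39, 2.62 fold). Nrp1, the co-receptor for VEGF-A, read 9.46, 9.47, 9.52 and 9.47 in the atria, against 9.98, 9.98, 10.04 and 10.03 in the ventricles (difference -0.53). The difference of Nrp2 minus that of Nrp1 was -0.86 by these probe sets. The other probe set of Nrp2, with both means below 4, gave -0.56 and that of Nrp1 gave -0.66, without such a gap. Flt4, the receptor of VEGF-C, read 4.46, 4.05, 3.96 and 4.21 in the atria, against 4.63, 4.81, 4.84 and 4.45 in the ventricles (difference -0.51, adjusted p = 0.0062). Its highest atrial pool lay above its lowest ventricular pool.

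The angiopoietin system divided. Angpt1, the activating ligand of Tek, was more abundant in the atria, with 5.29, 5.42, 5.81 and 4.94 in the atrial pools, against 4.23, 4.41, 4.12 and 3.98 in the ventricular pools (difference 1.18, standard error 0.16, adjusted p = 1.9e-04). Angpt2, its context-dependent antagonist, did not pass the test (difference -0.17, 95% interval -0.36 to 0.02), but passed without ventricular replicate 2 (-0.25, adjusted p = 0.028). The difference of Angpt1 minus that of Angpt2 was 1.35.

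Of the receptors, Tie1, an orphan partner of Tek, read 7.44, 7.50, 7.40 and 7.43 in the atria, against 8.56, 8.53, 8.75 and 8.41 in the ventricles (difference -1.12, adjusted p = 1.3e-06). Tek itself had an atrial mean of 8.91 ± 0.06 and a ventricular mean of 8.97 ± 0.08 (SD, n = 4 each). Its difference was -0.06, with a 95% interval of -0.20 to 0.08. Tie1 and Tek, which are both largely confined to endothelium, had differences that lay -1.06 apart, with Tie1 minus Tek from -1.54 to -1.42 in the atria and from -0.50 to -0.17 in the ventricles.

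Such differences between partners were taken for 7 pairs picked by role with their values known, and are given as descriptions with no test.

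Of 11 junction and surface genes measured, 8 were lower in the atria, 1 was higher and 2 did not pass. Podxl, a sialomucin of the luminal surface, had the most negative difference of all members by its brightest probe set: 7.40, 7.27, 7.20 and 7.25 in the atria, against 8.85, 8.77, 8.75 and 8.67 in the ventricles (difference -1.48, 2.79 fold, adjusted p = 7.9e-08). Its other probe sets gave -1.35 and -0.78, the last a smaller value than those of several other members. Esam, an adhesion molecule of tight junctions, read 7.94, 7.88, 7.88 and 7.99 in the atria, against 8.91, 8.95, 8.98 and 8.88 in the ventricles (difference -1.0). Both genes had their tissues far apart and their pools close together. Egfl7, a matrix protein secreted by endothelium, read 7.39, 7.59, 7.65 and 7.82 in the atria, against 8.55, 8.47, 8.60 and 8.30 in the ventricles (difference -0.87). Cldn5, the claudin of endothelial tight junctions, read 7.26, 7.14, 7.55 and 7.29 in the atria, against 7.91, 8.05, 8.22 and 8.09 in the ventricles (difference -0.76).

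Acvrl1, a receptor for bone morphogenetic proteins on endothelium, read 6.19, 6.22, 6.27 and 6.01 in the atria, against 6.87, 6.97, 6.94 and 6.77 in the ventricles (difference -0.72). Pecam1, the classical marker of endothelial junctions, read 8.52, 8.41, 8.32 and 8.41 in the atria, against 9.0, 9.05, 9.13 and 8.92 in the ventricles (difference -0.61, adjusted p = 5.2e-05). Smaller differences were found for endomucin (Emcn, -0.29) and for Cav1, the coat protein of caveolae (-0.27), which muscle and fat cells also express. Eng, a co-receptor of the same pathway as Acvrl1, and Icam2 did not pass, at -0.16 (95% interval -0.32 to 0.01) and -0.09 (-0.25 to 0.08). Eng passed with quantile normalization (-0.22, adjusted p = 0.039), with cyclic loess (-0.22, 0.048) and without atrial replicates 1 and 4 (-0.25, 0.038).

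The exception in this group was Plvap, which forms the diaphragms of fenestrated and caveolar endothelium. Plvap read 8.38, 8.14, 7.93 and 7.75 in the atria, against 5.42, 5.46, 5.78 and 5.44 in the ventricles, 5.76 fold higher in the atria (difference 2.53, standard error 0.13, adjusted p = 2.0e-07). Even the lowest atrial pool stood well above the highest ventricular pool. Cdh5, the cadherin of endothelial junctions, has no probe set under its name in the platform annotation. The annotation that the study supplies names a probe set for it, which read 8.72, 8.69, 8.88 and 8.92 in the atria, against 9.73, 9.70, 9.79 and 9.77 in the ventricles (difference -0.95). That annotation lists only probe sets that the study selected as differing, so Cdh5 was counted nowhere.

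All 7 transcription factors of endothelial identity were lower in the atria, with a median difference of -1.08. Ets1, which drives endothelial and lymphoid genes, read 7.99, 7.84, 8.06 and 8.07 in the atria, against 9.31, 9.10, 9.26 and 9.29 in the ventricles (difference -1.25, 2.38 fold, adjusted p = 5.3e-07). The ETS factors Erg and Fli1, which maintain endothelial identity, were lower by smaller amounts. Erg read 7.54, 7.51, 7.58 and 7.55 in the atria, against 8.44, 8.32, 8.19 and 8.22 in the ventricles (difference -0.75), and its dimmer probe set gave -0.38. Fli1 read 7.72, 7.54, 7.59 and 7.67 in the atria, against 8.42, 8.32, 8.50 and 8.33 in the ventricles (difference -0.76), and its other 3 probe sets gave -0.97, -0.88 and -0.30.

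The SOX factors Sox7, Sox17 and Sox18, which act together in vessel formation, were within a narrow range. Sox18 read 7.64, 7.32, 7.35 and 7.41 in the atria, against 8.80, 8.64, 8.57 and 8.67 in the ventricles (difference -1.24). Sox7 read 8.05, 7.90, 7.85 and 7.98 in the atria, against 9.19, 9.01, 9.02 and 8.89 in the ventricles (difference -1.08). Sox17, which is linked to arterial endothelium, read 5.71, 5.98, 6.04 and 6.16 in the atria, against 7.0, 7.24, 7.27 and 7.12 in the ventricles (difference -1.18). Of its dimmer probe sets, that near 4 gave -0.52 and that near 3, at the low end, gave 0.00 (adjusted p = 0.99).

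Meox2, a homeobox factor of heart endothelium tied to fatty acid uptake in mouse, read 6.68, 6.60, 6.80 and 6.90 in the atria, against 7.58, 7.81, 8.0 and 7.88 in the ventricles (difference -1.07, 2.1 fold). Ephb4, the receptor of ephrin B2 that marks veins, read 6.91, 7.0, 7.12 and 6.91 in the atria, against 7.56, 7.60, 7.62 and 7.60 in the ventricles (difference -0.61, adjusted p = 3.5e-05).

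The promoter windows of members were searched for short motifs of factors named above and of the hypoxia response. RefSeq windows (GRCr8, 250 bases before to 50 after a gene's start) were matched by symbol for 29 of the 46 genes, 27 of them measured, with 33 windows in all. Each motif was searched on both strands. The ETS core CAGGAA was in 39.4% of the member windows and in 29.1% of all 33469 windows. The ETS core CCGGAA was in 6.06% of the member windows and in 15% of all windows. The SOX core ACAAAG was in 12.1% of the member windows and in 18.8% of all windows. The hypoxia element ACGTG, which overlaps its own reverse complement in CACGTG, was in 15.2% of the member windows and in 19.3% of all windows. The first of these motifs occurred in windows of 5 members lower in the atria (of 19 with a window) and of 5 members higher there (of 7). A match is a run of letters and says nothing of binding.

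The windows of Kdr and Erg, lower in the atria, and of Plvap and Vcam1, higher in the atria, are shown with the motif letters in capitals: a receptor and a factor from the larger set, and the genes with the largest differences in the smaller set. They lie at chr14:32571813-32572112 (plus strand), chr11:48251517-48251816 (minus strand), chr16:18231230-18231529 (minus strand) and chr2:206742734-206743033 (minus strand). All are written 5′ to 3′ on the strand of the gene.
Kdr: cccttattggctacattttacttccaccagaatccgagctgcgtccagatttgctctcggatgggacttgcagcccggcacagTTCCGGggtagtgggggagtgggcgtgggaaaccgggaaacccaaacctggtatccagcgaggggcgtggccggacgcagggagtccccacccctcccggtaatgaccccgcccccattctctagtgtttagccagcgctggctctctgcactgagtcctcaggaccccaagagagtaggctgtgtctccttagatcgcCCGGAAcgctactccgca
Erg: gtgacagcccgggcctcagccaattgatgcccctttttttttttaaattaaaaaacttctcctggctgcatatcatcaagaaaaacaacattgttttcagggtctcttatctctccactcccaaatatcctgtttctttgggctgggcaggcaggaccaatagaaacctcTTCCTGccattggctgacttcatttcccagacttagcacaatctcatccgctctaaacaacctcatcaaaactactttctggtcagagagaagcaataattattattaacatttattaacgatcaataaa
Plvap: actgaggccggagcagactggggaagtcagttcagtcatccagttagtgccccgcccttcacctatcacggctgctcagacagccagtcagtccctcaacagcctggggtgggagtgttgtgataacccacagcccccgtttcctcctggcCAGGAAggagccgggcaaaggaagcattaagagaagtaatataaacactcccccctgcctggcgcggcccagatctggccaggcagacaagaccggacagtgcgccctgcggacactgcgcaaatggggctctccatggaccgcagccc
Vcam1: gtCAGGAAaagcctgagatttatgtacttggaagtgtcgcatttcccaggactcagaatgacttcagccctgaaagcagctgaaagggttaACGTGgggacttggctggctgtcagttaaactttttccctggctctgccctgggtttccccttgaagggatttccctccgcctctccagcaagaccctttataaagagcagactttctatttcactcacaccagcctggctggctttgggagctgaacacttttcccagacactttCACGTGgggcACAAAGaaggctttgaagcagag
The Kdr window held CCGGAA in each orientation, beginning at positions -167 and 33 from the start of the gene. The Erg and Plvap windows each held CAGGAA once, at -80 on the reverse strand and at -99 on the forward strand. The Vcam1 window held CAGGAA at -248, ACGTG at -159 and again within CACGTG from position 18, and ACAAAG at 28.

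Of 3 lymphatic markers, 2 were higher in the atria. Pdpn, a sialoglycoprotein of lymphatic endothelium that mesothelium also carries, read 8.85, 8.62, 8.51 and 8.21 in the atria, against 6.51, 6.16, 6.36 and 6.10 in the ventricles, 4.8 fold higher (difference 2.26, adjusted p = 4.5e-07). Lyve1, a hyaluronan receptor of lymphatic endothelium and of some resident macrophages, read 9.07, 8.86, 8.75 and 9.0 in the atria, against 7.88, 7.58, 7.81 and 7.65 in the ventricles (difference 1.19), and its other probe set gave 1.06. Prox1, the transcription factor that sets lymphatic identity and is also made in heart muscle cells, went the other way by a small amount. Its values were 7.60, 7.71, 7.67 and 7.50 in the atria, against 7.77, 7.78, 7.77 and 7.81 in the ventricles, a difference of -0.16 that missed the threshold (adjusted p = 0.062). It passed with a trended and robust fit (adjusted p = 0.046), without the dimmest 40% of probe sets (0.044), with quantile normalization (-0.23, 0.0067) and with cyclic loess (-0.22, 0.0087).

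Of 13 other lymphatic genes measured, 2 were higher, 3 were lower and 8 did not pass, with a median difference of -0.10. Over all genes 22.5% were called in each direction, and 4 of the 13 had both means below 4. Ccl21, the chemokine of lymphatic endothelium, differed by -0.42 (adjusted p = 0.011) and Reln, a glycoprotein enriched there, by -0.36 (0.033). Itga9, an integrin of lymphatic valves, had the largest value, at -2.40. Higher were Prelp, a matrix proteoglycan (1.06), and the transcription factor Maf (0.51).

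The adhesion molecules that recruit leukocytes did not move as a group. Vcam1, which binds integrins of leukocytes, had the largest difference of all members: 7.81, 7.83, 7.88 and 7.81 in the atria, against 4.87, 4.83, 5.21 and 5.21 in the ventricles, 6.97 fold higher (difference 2.80, standard error 0.10, adjusted p = 1.1e-08). The SD of its atrial pools was 0.03. Icam1, its partner in leukocyte adhesion, read 7.0, 6.56, 6.52 and 6.64 in the atria, against 6.30, 6.37, 6.22 and 6.42 in the ventricles (difference 0.35, adjusted p = 0.02). The call of Icam1 was lost without ventricular replicate 3 (adjusted p = 0.058), with quantile normalization (0.051) and without atrial replicates 1 and 4 (difference 0.21, adjusted p = 0.06). The difference of Vcam1 exceeded that of Icam1 by 2.45.

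The selectins, which let leukocytes roll on activated endothelium, were at the low end. Sele read 2.82, 2.81, 2.69 and 2.90 in the atria, against 3.98, 3.43, 3.90 and 3.73 in the ventricles, a difference of -0.96 whose size is not set because both means were below 4. Selp had an atrial mean of 3.18 ± 0.03 and a ventricular mean of 3.15 ± 0.06 (SD, n = 4 each; adjusted p = 0.7).

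Genes of coagulation and vascular tone split, with 3 higher and 2 lower in the atria. Procr, the endothelial receptor for protein C, read 7.55, 7.17, 7.18 and 7.24 in the atria, against 5.55, 5.49, 5.55 and 5.30 in the ventricles, 3.52 fold higher (difference 1.81, adjusted p = 2.2e-07). Thbd, thrombomodulin, which turns thrombin toward activating protein C, went the opposite way: 6.93, 6.75, 6.87 and 6.83 in the atria, against 8.04, 8.02, 8.04 and 8.11 in the ventricles (difference -1.21, 2.31 fold, adjusted p = 1.7e-07). All 3 Thbd probe sets were lower, at -1.21, -1.30 and -0.97. The difference of Thbd minus that of Procr, in the same pathway, was -3.02.

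Tfpi, the inhibitor of the tissue factor pathway, read 9.15, 9.33, 9.13 and 9.17 in the atria, against 8.18, 8.11, 8.23 and 8.20 in the ventricles (difference 1.02, 2.02 fold), with 0.76 at its other probe set. Vwf, the platelet-binding protein stored in endothelial granules, read 9.08, 8.94, 8.84 and 8.73 in the atria, against 8.02, 8.04, 7.86 and 7.95 in the ventricles (difference 0.93, adjusted p = 9.3e-06). Vwf had a difference with the sign opposite to that of Pecam1, Esam and Kdr. Nos3, endothelial nitric oxide synthase, read 6.28, 6.11, 6.13 and 5.69 in the atria, against 6.97, 7.03, 6.83 and 7.03 in the ventricles (difference -0.91, adjusted p = 1.2e-04).

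**Figure D3:**
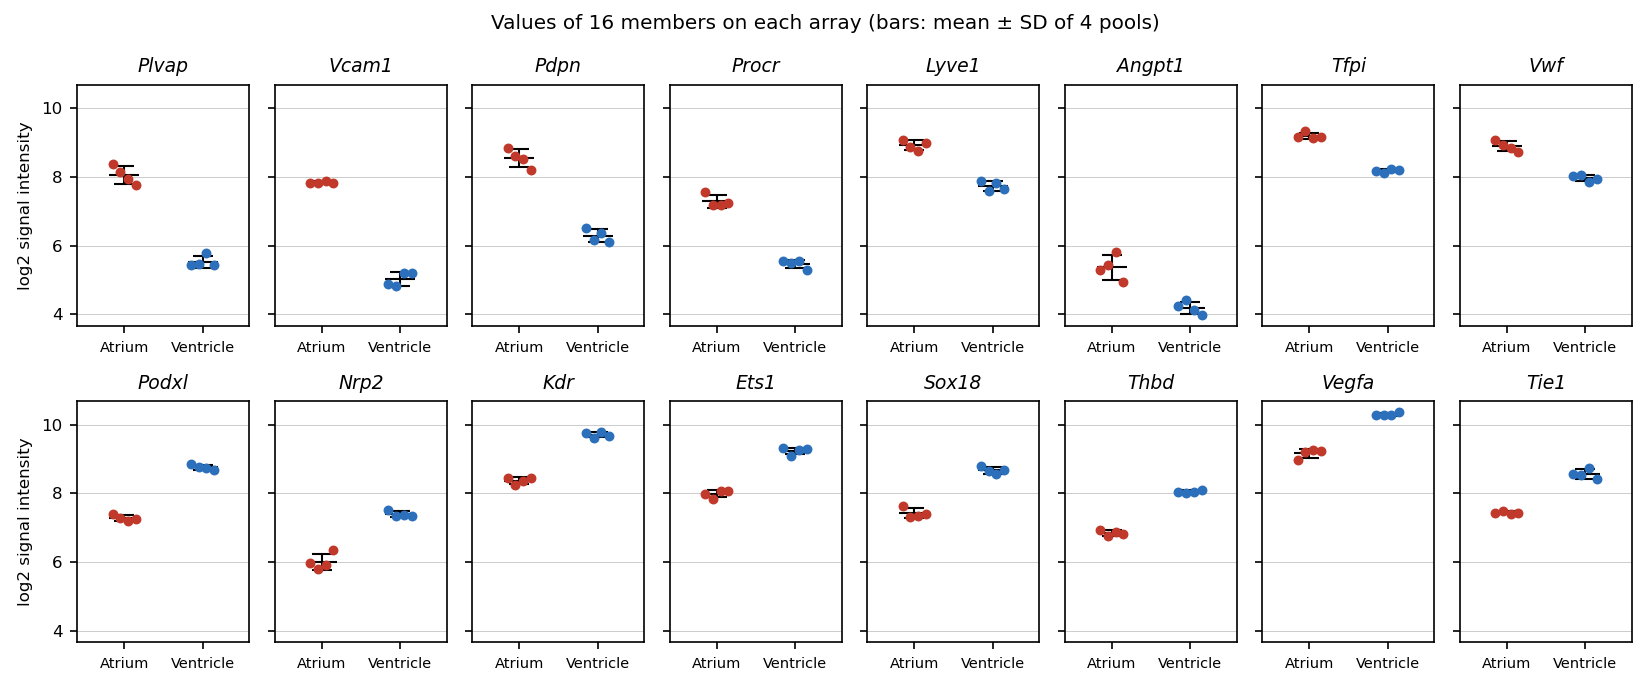
Log2 signal intensity of 16 members, each point an array with the atrium left of the ventricle and bars the mean ± SD of 4 pools. The upper row holds 8 members higher in the atria, from Plvap to Vwf, the lower row 8 members lower in the atria, from Podxl to Tie1, and in none do the tissues overlap.

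Where a gene had several probe sets, they seldom disagreed. Of the 67 probe sets, 45 were lower in the atria, 11 were higher and 11 did not pass. Of all 31042 probe sets of the array, 6245 were lower and 5789 were higher. In 15 of the 17 members with several probe sets all of them had the same call, and in 0 were they called in opposite directions. The exceptions were Cav1 and Sox17, whose dimmest probe sets did not pass.

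The medians of the called members were similar between the pools of a tissue, though single members could vary more. The signs of these medians follow from the choice of members by the same contrast and are no further result. Relative to its mean over all arrays, the median of the 28 lower members was -0.43, -0.49, -0.45 and -0.39 in atrial replicates 1 to 4, against 0.50, 0.46, 0.54 and 0.40 in the ventricles. The median of the 9 higher members was 0.74, 0.64, 0.80 and 0.68 in the atria, against -0.54, -0.74, -0.66 and -0.79 in the ventricles.

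Other vascular genes from fixed lists that hold no member were read in the same fit. Of 33 further genes listed as endothelial, 26 were lower in the atria, 4 higher and 3 not called. Their median difference was -0.45. Not all of them are confined to endothelium, and Sox11, which did not pass, had both means below 4. The largest values were those of the scaffold Shank3 (-1.49), the adhesion molecule Mcam (-1.41), which pericytes also carry, and Arhgef15 (-1.39). On the other side stood Tm4sf1 (2.00), a membrane protein of endothelium and mesothelium, the early response factor Egr1 (1.22) and Tspan7 (0.35).

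Of 14 capillary genes measured, 13 were lower, 0 were higher and 1, Fabp4, a fatty acid carrier that fat cells also make, did not pass (-0.19, adjusted p = 0.49). The chemokine Cxcl12 differed by -1.95, the apelin receptor Aplnr by -1.54 and the carbonic anhydrase Car4 by -1.10. Of 13 arterial genes, 11 were lower and 1 was higher, with the Notch targets Hey2 (-1.75) and Hey1 (-1.73) and the semaphorin Sema3g (-1.30) lowest. The exception was Mgp, a calcification inhibitor made by several cell types (0.89). The paper describes Hey1 as thought to repress the gene of atrial natriuretic factor in the ventricles. The part of muscle cells in the values of Hey1 and Hey2 was not tested.

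Genes of veins and of activated endothelium were more often higher, in 7 of 11, with 3 lower. Nr2f2, the transcription factor of venous identity, which is also an atrial muscle factor, differed by 2.01 (adjusted p = 2.6e-08), the cyclooxygenase Ptgs1 by 1.08 and prostacyclin synthase (Ptgis) by 1.06. Lower were Lrg1 (-1.05), the plasminogen activator Plat (-0.42) and Tgm2 (-0.40). Of 11 endocardial genes, 8 were higher and 1, Gata5, was lower (-0.31, adjusted p = 0.043). Npr3, the clearance receptor of natriuretic peptides, differed by 2.59, Cytl1 by 1.91 and the cadherin Cdh11 by 1.69. Several of these genes are also made outside endothelium.

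In the VEGF pathway and the hypoxia response, 4 of 17 further genes were higher, 7 were lower and 6 did not pass. By the same rule, 22.5% of all genes were called in each direction. The oxygen sensors Egln3 and Egln1, prolyl hydroxylases that mark hypoxia-inducible factors for decay, differed by -1.38 and -0.79, and Epas1, a hypoxia-inducible factor of endothelium, by -0.53. The phosphatase Ptprb, which acts on Tek and is also counted among the endothelial genes, differed by -1.05 and the semaphorin receptor Plxnd1 by -0.89. Higher were adrenomedullin (Adm, 0.90) and the neuropilin ligands Sema3a (0.87, with a ventricular mean below 4) and Sema3c (0.39). Hif1a itself did not pass (0.15, adjusted p = 0.083).

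**Figure D4:**
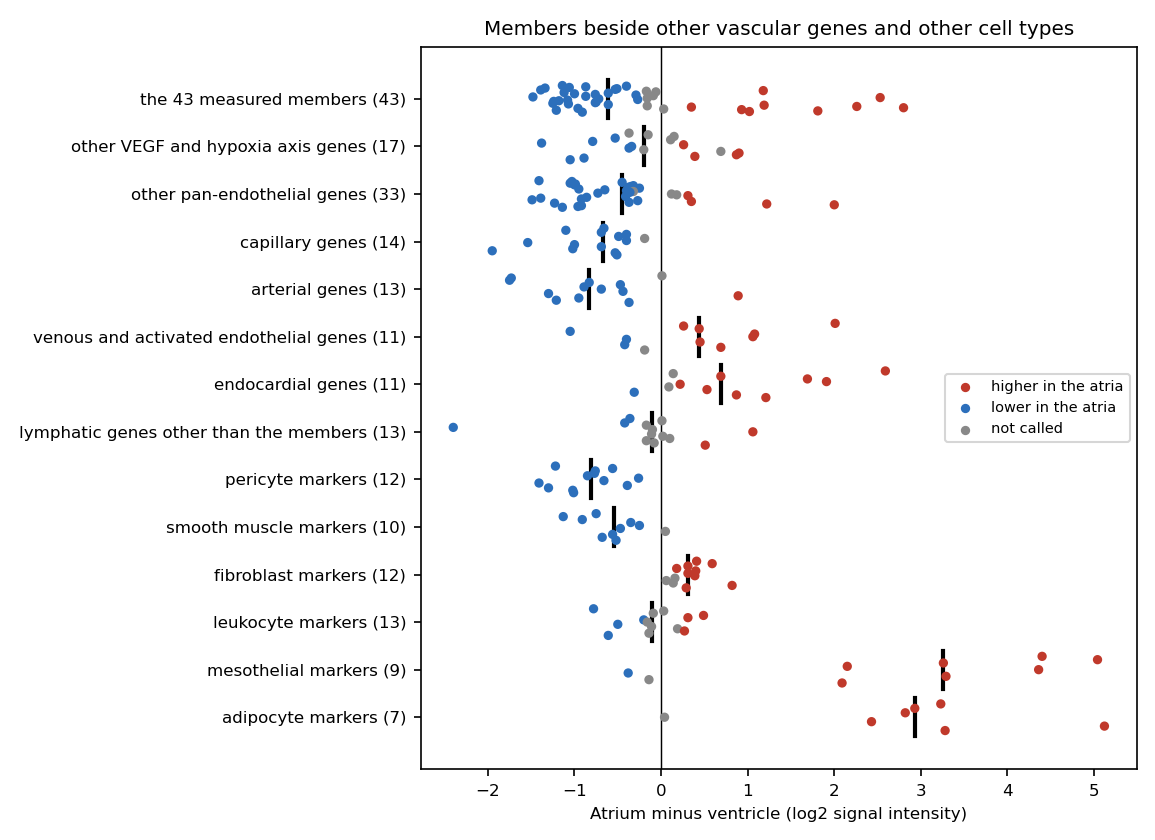
Atrium minus ventricle in log2 signal intensity for the 43 members and 13 other gene lists, each point a gene, black bars the medians, with the number of genes in brackets. The medians of capillary, arterial and pericyte genes lie left of 0, at -0.67, -0.83 and -0.81, and those of mesothelial and adipocyte markers far to the right, at 3.26 and 2.93.

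Mesothelial and adipocyte markers moved with the chamber. Of 9 mesothelial markers, 7 were higher in the atria, by a median of 3.26, Wt1 was lower and Rspo1, below 4 in both tissues, did not pass. The defining markers Upk1b and Krt19 averaged 8.58 and 7.87 in the atria, against 3.55 and 3.51 in the ventricles. The summed linear intensity of the list was 2148, 1578, 1513 and 1134 in atrial replicates 1 to 4, against 204.7 to 227.4 in the ventricles. Plvap, Pdpn and Vwf had the same order of atrial pools, highest in replicate 1 and lowest in replicate 4. The other members higher in the atria, Vcam1, Procr, Lyve1, Angpt1, Tfpi and Icam1, did not have that order, and the atrial pools of Vcam1 lay between 7.81 and 7.88. The part of mesothelial RNA in the values of the members was not tested.

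Of 7 adipocyte markers, 6 were higher in the atria, by a median of 2.93, and Lep, below 4 in both tissues, did not pass. Their summed intensity was 675.2, 1252, 899 and 3248 in atrial replicates 1 to 4, against 106.1 to 118.5 in the ventricles. The part of adipose tissue in the values of the members was not tested. Fibroblast markers were higher in 9 of 12 genes by a median of 0.31, and leukocyte markers were higher in 3 and lower in 4 of 13. Erythrocyte and platelet markers were lower in 3 of 7, and Schwann cell and neuron markers were higher in 3 and lower in 1 of 7. These counts stand beside 22.5% of all genes called in each direction. Of the myeloid markers, Cd163 and Mrc1, which resident macrophages carry, were higher by 0.49 and 0.31, with a ventricular mean of Cd163 below 4. Csf1r (-0.09), Cd68 (0.03) and Itgam (-0.11) did not pass, and Ptprc, carried by all leukocytes, differed by -0.78. S100a9 was lower, at -0.61 (adjusted p = 7.0e-04), and Fcgr2b was higher, at 0.27. Adgre1 (0.19) and S100a8 (-0.14) did not pass. Fcgr2b, Adgre1 and S100a8 had both means below 4. The part of macrophage RNA in the values of Lyve1 was not tested. Without atrial replicate 4 the counts of members were 28 lower and 9 higher.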

How the data were processed

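RNA of 4 atrial and 4 ventricular pools (10 μg of total RNA each) was hybridized to Affymetrix whole-genome rat expression arrays. The authors computed log2 signal intensities by RMA, with background adjustment, quantile normalization and summarization, and deposited 1 log2 value for each of 31042 probe sets and 8 arrays. The version of RMA is not given in the sources used here. The lowest value was 1.9 and the highest 13.77, and the medians of the arrays lay between 4.80 and 4.81. The number of arrays limits the precision.

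No further scaling was applied. Atrium and ventricle were compared for every probe set with limma 3.58.1 (R 4.3.3), and p-values were adjusted over all 31042 probe sets by the Benjamini-Hochberg method. SAM, the test named in the methods of the study, was not run. The platform annotation gives 1 symbol for 20826 probe sets, several genes for 436 and none for 9780, and 20758 symbols were matched to current gene IDs. Partner genes were set side by side by the difference between their differences; the exact permutation tests planned for these pairs are not reported, since the pairs were picked with their values known. Figures were drawn with matplotlib 3.10.9. The fit was tested on simulated data. Members, lists and tests were chosen with earlier results of these data known. Every member is named. Array values are printed for members that passed the test with a difference of at least 0.5 on the log2 scale and where calls or pools needed them, and genes of other lists are the up to 3 largest in each direction or were named after their values were seen. The labels do not say which animals went into which pool, so p-values measure the spread between pools. Alternatives were a replicate block, a trended and robust fit, 3 other scalings, a filter on dim probe sets, left-out arrays, stricter thresholds and other choices of probe set.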

Additional observations from a re-analysis of the deposited data

Results flagged for a closer look

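In 86 groups of 4 pools (43 members in each tissue), 6 held a pool that stood apart from the other 3 by more than the 95% limit of Dixon's test, which is 6.98% of the groups. Chance alone gives about 1 in 20.

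Among atrial pools, Vegfc read 5.95 in replicate 2 (the others 6.11 to 6.14), Icam2 read 8.81 in replicate 1 (the others 8.53 to 8.54) and Tfpi read 9.33 in replicate 2 (the others 9.13 to 9.17). Among ventricular pools, Vegfb read 9.84 in replicate 1 (the others 9.34 to 9.40), Emcn read 9.64 in replicate 3 (the others 9.44 to 9.46) and Plvap read 5.78 in replicate 3 (the others 5.42 to 5.46). Leaving out each of these pools kept the call of Vegfc, Icam2, Tfpi, Vegfb, Emcn and Plvap.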

How the results depend on the processing

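The counts of members, 28 lower and 9 higher, stayed between 27 and 30 lower and 8 and 9 higher over the fits that kept the threshold of 0.05, and the median difference between -0.68 and -0.59. With 1 array left out at a time they ran from 27 to 29 lower and 8 to 9 higher. At an adjusted p under 0.01 they were 27 and 8, while 3620 probe sets of the whole series were lower and 4183 higher, against 6245 lower and 5789 higher at 0.05. At an adjusted p under 0.0001 and 1.8 fold, 16 members were lower and 7 higher. By that rule 29 genes of the other vascular lists were lower and 10 higher, against 63 and 26 at 0.05, and of the whole series 582 probe sets were lower and 818 higher, against 6245 and 5789.

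The labels do not say whether pools of the same number share animals. The residuals did not show a pairing by number: same-numbered pools had correlations from -0.188 to 0.155. Of the 4 atrial pools, 2 correlated best with the ventricular pool of their number. Atrial replicates 3 and 4 correlated best with ventricular replicates 4 and 3, at 0.225 and 0.278. Whether pools of unlike number share animals was not tested, and a block by such partners was not fitted. With the replicate number as a block, 28 members were lower and 9 higher, and 5514 probe sets of the whole series were lower and 5409 higher. Of the 43 members, 38 kept their call in every fit at the 0.05 threshold that tested their brightest probe set. The 5 others are Vegfb, Icam1, Angpt2, Eng and Prox1, whose values are given with them. The other choices of probe set were compared by their counts only, not member by member. Sele and Selp are below the floor of the filter on the dimmest 40% of probe sets and were not tested with it. No call changed direction in the fits compared member by member.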

Other observations

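Most marker genes of the mural cells around vessels had lower signals in the atria. All 12 pericyte markers measured that are not members were lower, by a median of -0.81. Their summed intensities were 1461 to 1597 in the atria and 2860 to 3043 in the ventricles. Angpt1, also planned as a pericyte marker but counted only among the members, went the other way (1.18, adjusted p = 1.9e-04). Mcam (-1.41), Vtn (-1.30) and Rgs5, a regulator of G protein signaling (-1.22), had the largest values. The receptor Pdgfrb, through which endothelium recruits pericytes, differed by -0.56. Of 10 smooth muscle markers, 9 were lower and 1 did not pass, with Myh11, the smooth muscle myosin, at -1.13 and Tagln at -0.91. Mcam is also on the list of endothelial genes, and Kcnj8 (-1.02) is also counted among the capillary genes. Pln of the smooth muscle list is a cardiomyocyte gene. Abcc9, the brightest pericyte marker (8.97 in the atria, 9.81 in the ventricles), encodes SUR2. The study discusses SUR2 among the potassium channel genes considered for hormone secretion by atrial muscle cells. The part of muscle cells in the summed intensities was not tested.

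The Notch genes of the arterial list were lower throughout: the ligands Dll4 (-0.83) and Jag1 (-0.47), and the receptors Notch1 (-0.89) and Notch4 (-0.69). Gja4, a connexin of arterial endothelium, did not pass (0.01, adjusted p = 0.95), with 7.29 in the atria and 7.28 in the ventricles.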
